A study of Mus musculus with 9 samples.

Results

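The 30 genes described here encode the machinery that builds peroxisomes and a set of peroxisomal enzymes and membrane proteins outside fatty acid beta-oxidation. They were taken by gene symbol: 13 peroxins (Pex genes), 5 oxidases including Hao2, 2 enzymes that remove peroxides and 2 enzymes of ether lipid synthesis. The rest were the alpha-oxidation enzymes Phyh and Hacl1, the racemase Amacr, 2 membrane proteins, and Idh1, Nudt12 and Nudt19. All 30 were among the 23282 symbols measured, and all 30 had an adjusted read number of at least 10 in at least 4 libraries, as did 13481 symbols in all. The samples were kidneys of C57BL/6 mice, 4 wild-type libraries and 5 of genotype Bmal1 -/-, read by 3′ mRNA sequencing for a study of the clock and chronic kidney disease. Bmal1, listed under the symbol Arntl, is the transcription factor that pairs with Clock or Npas2 on E-box sites to drive the circadian clock. The labels name no treatment, and give neither the sex, the age, the hour of sampling, the deleted part of Bmal1, nor a cell type or Cre driver to which the deletion was limited. Whether the libraries are separate animals is not said either, and the p-values below reflect only how these libraries varied, which may be technical.

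Peroxisomes are small organelles bounded by a single membrane, in which oxidases pass electrons from lipids, amino acids and hydroxy acids to oxygen and make hydrogen peroxide, which catalase breaks down. Their enzymes are made in the cytosol and imported by peroxins: receptors bind a targeting signal on the cargo, dock at the membrane, release the cargo inside and are pulled out again. In the kidney they are most abundant in proximal tubule cells, which burn fatty acids for energy.

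Values are on a log2 scale, log2(x + 1), where x is the number of reads assigned to a gene after adjustment to a similar library size by the authors. The method reads about 1 tag near the 3′ end of each transcript, so levels of different genes can be set side by side without correction for length. A difference is knockout minus wild type on this scale, tested with limma across all 13481 genes, and a gene passed at a Benjamini-Hochberg adjusted p under 0.05. All adjusted p-values below come from that test, and intervals are its 95% intervals.

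Adjusted totals ran from 11765219 to 13486444 per library. The ribosomal RNA precursor Rn45s took 5.07% to 11.3% of wild-type reads and 6.83% to 14.4% of knockout reads. Globin transcripts, which come from blood, took 0.619% to 1.54% and 0.897% to 3.56%, and both measures were highest in wild type 2 and knockout 4 within their genotypes. The globin share sums symbols with nearly equal values in every library, Hbb-b1 with Hbb-bs and Hbb-b2 with Hbb-bt. In knockout 4 these were at 16.58 and 16.60, and at 14.60 and 14.68. The same reads may thus be counted more than once, which would make the globin shares too high. Adipocyte markers summed to at most 0.53 CPM (x per 1000000 of the library total) in any wild type, and to 11.8 CPM in knockout 2 and 93.7 CPM in knockout 5. Arntl differed by -0.84 (SE 0.21, adjusted p = 0.0112), with wild-type values of 6.68, 6.26, 7.06 and 6.76 and knockout values of 5.95, 5.65, 5.98, 5.80 and 5.86. This call was lost without wild type 3 (adjusted p = 0.0552), with the Rn45s share as covariate (adjusted p = 0.0728) and without knockout 2 and knockout 5 (adjusted p = 0.0671). A 3′ tag outside the deleted part checks nothing, and the deleted part is not given.

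Of the 30 peroxisomal genes, 3 were higher and 8 lower in knockout, and 19 did not pass. Hao2 rose 4.68-fold, Hacl1 2.26-fold and Xdh 1.64-fold. The genes that fell were Nudt19, Agps, Amacr, Phyh, Pxmp4, Cat, Pipox and Gnpat, from 3.27-fold for Nudt19 to 1.40-fold for Gnpat. Across all genes 14.4% passed, 6.16% higher and 8.2% lower. Without adjustment of p, 17 of the 30 were under 0.05, 3 of them higher, beside 27.5% of all genes in either direction. The genotypes did not overlap in 3 higher and 7 lower of the 30, beside 14.3% of all genes. The median difference of the 30 was -0.29, and 24 of them were negative; over all genes the median was 0.00. Without wild type 2 and knockout 4, 2 were higher and 10 lower. Without knockout 2 and knockout 5, 2 were higher and 7 lower.

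**Figure D1:**
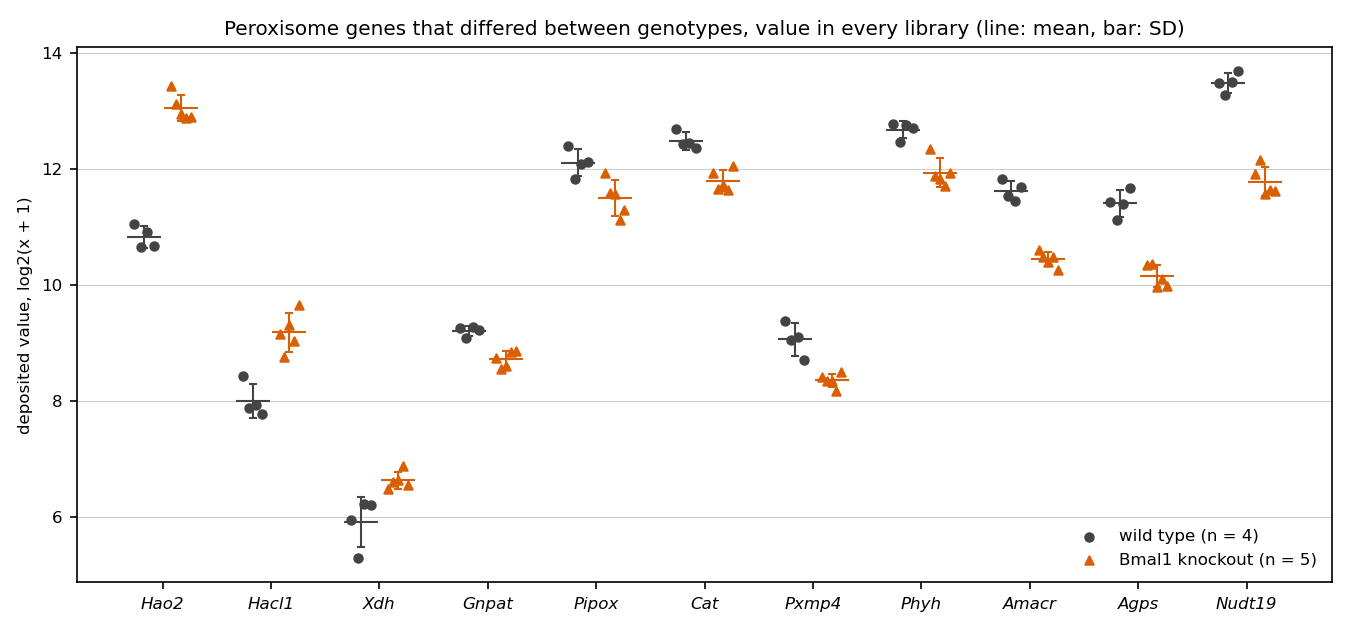
Deposited values, log2(x + 1), of the 11 peroxisomal genes that passed the test, in each of the 4 wild-type libraries (circles) and 5 Bmal1 knockout libraries (triangles); lines are means and bars SD. Hao2, Hacl1 and Xdh lie higher in every knockout than in any wild type, and the other genes lie lower, with overlap between genotypes in Pipox.

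By role, no peroxin passed the limma test, and 11 of the other 17 genes did, 3 higher and 8 lower. The 13 peroxins had a median difference of -0.24 and lay between -0.45 and 0.25; 3 of them were lower at an unadjusted p under 0.05. The other 17 had a median of -0.49 and lay between -1.71 and 2.23. The difference between these lists was not tested.

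**Figure D2:**
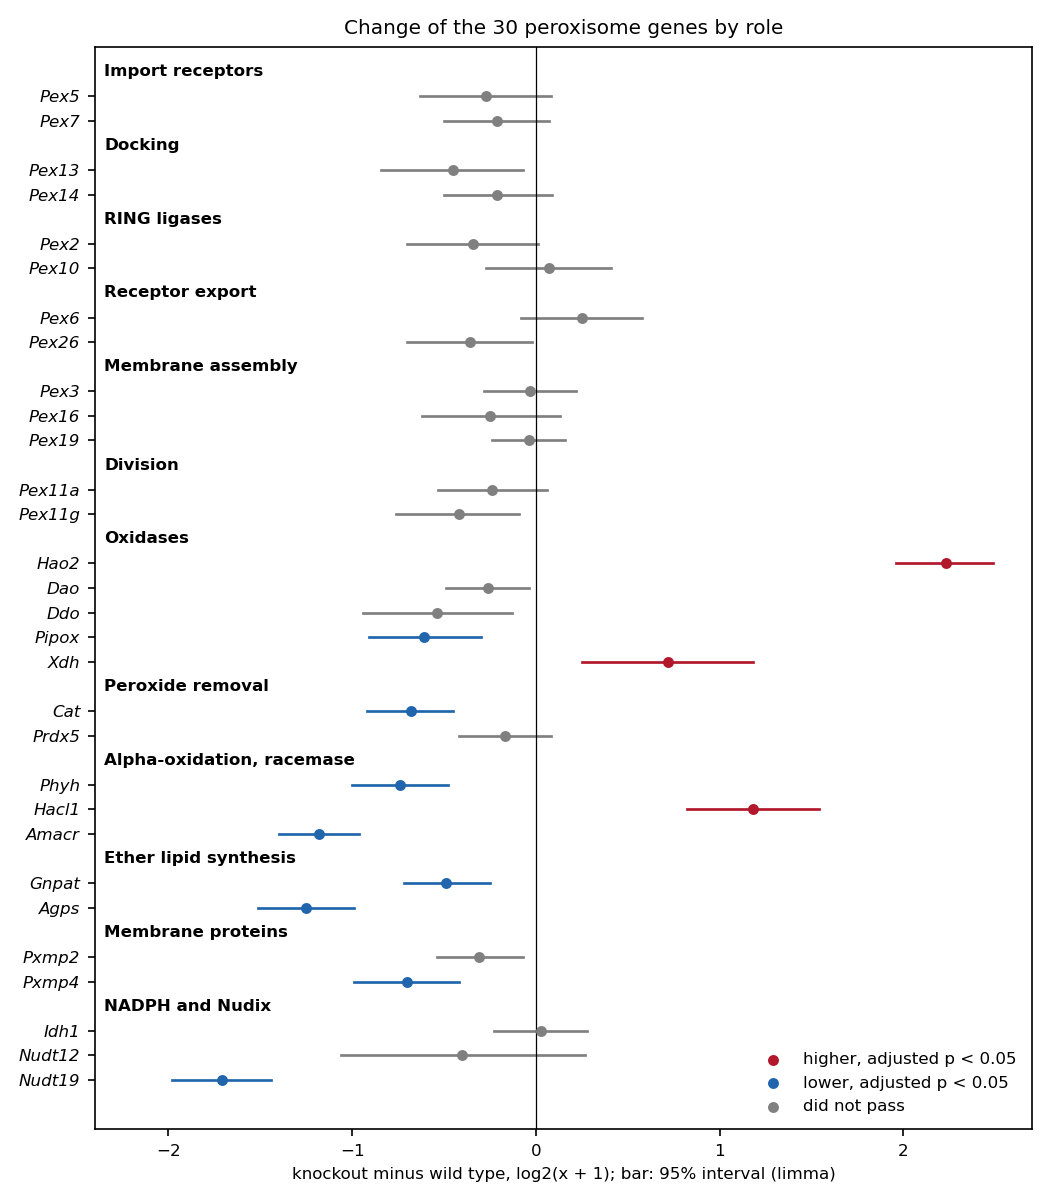
Difference between knockout and wild type, on the log2(x + 1) scale, of each of the 30 genes by role, with 95% intervals from limma; red and blue mark genes that passed the test, higher and lower. The peroxins, from import receptors to division, lie between -0.45 and 0.25 and none passed, while the enzymes span -1.71 for Nudt19 to 2.23 for Hao2.

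Among the import receptors, Pex7 carries proteins with an amino-terminal signal, Phyh and Agps among them. Its values were 9.22, 8.92, 8.98 and 9.06 in wild type against 8.97, 9.02, 8.37, 8.93 and 8.86 in knockout. The genotypes overlapped, knockout 3 was the lowest library, and the difference was -0.21 (interval -0.50 to 0.07, adjusted p = 0.34). Pex5, the receptor for the carboxy-terminal signal that most matrix enzymes carry, differed by -0.27 (interval -0.63 to 0.08, adjusted p = 0.315).

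Pex13 and Pex14 form the docking site at the membrane. Pex14 was at 9.14, 8.99, 9.0 and 8.90 in wild type and at 9.09, 8.71, 8.91, 8.35 and 8.95 in knockout. Only knockout 4 and knockout 2 lay below every wild type, and the difference of -0.21 did not pass (interval -0.50 to 0.09, adjusted p = 0.37). Pex13 had the most negative difference of the peroxins, -0.45 (interval -0.84 to -0.07, adjusted p = 0.114). It passed when wild type 2 was left out, at -0.62 (adjusted p = 0.0204). Its exons overlap those of Pus10 on the other strand, and reads of overlapping genes cannot be told apart here, since the authors' strand setting is not given in the sources used here.

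Pex2 and Pex10 are RING-finger proteins of the ubiquitin ligase that marks used receptors for export. Pex2 values were 8.95, 8.77, 8.23 and 8.48 in wild type against 8.20, 8.45, 7.83, 8.21 and 8.62 in knockout, with wide overlap. Its difference was -0.34 (interval -0.70 to 0.01, adjusted p = 0.202), and that of Pex10 was 0.07 (interval -0.27 to 0.41, adjusted p = 0.832). Pex6 is an ATPase that pulls the marked receptors out, and Pex26 anchors it at the membrane. For Pex26, wild types were at 7.89, 7.78, 8.08 and 8.07 and knockouts at 7.82, 7.34, 7.75, 7.21 and 7.83. Knockout 2 and knockout 4 were low and the others lay near the wild types; the difference was -0.36 (interval -0.70 to -0.02, adjusted p = 0.15). Pex6 had the most positive difference of the peroxins, 0.25 (interval -0.08 to 0.58, adjusted p = 0.321).

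Pex3, Pex16 and Pex19 insert membrane proteins into the peroxisome. Pex19, the soluble chaperone of the set, was at 9.81, 9.74, 9.69 and 9.70 in wild type and at 9.72, 9.75, 9.74, 9.59 and 9.68 in knockout. All 9 libraries lay close together, with a difference of -0.04 and an interval of -0.24 to 0.16 (adjusted p = 0.834). Pex3 gave -0.03 (interval -0.28 to 0.22, adjusted p = 0.906) and Pex16 -0.25 (interval -0.62 to 0.13, adjusted p = 0.409). Exons of Pex3 overlap Adat2 and those of Pex16 overlap Large2, each on the other strand.

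Pex11a and Pex11g belong to the family that elongates peroxisomes before they divide. Pex11a is also a known target of the lipid-sensing receptor PPAR alpha. It was at 9.73, 10.09, 9.72 and 9.69 in wild type and at 9.30, 9.31, 9.90, 9.51 and 9.85 in knockout. Wild type 2 stood above the other wild types, knockouts 3 and 5 lay within the wild-type range, and the difference of -0.24 did not pass (interval -0.53 to 0.06, adjusted p = 0.299). Pex11g gave -0.42 (interval -0.76 to -0.09, adjusted p = 0.0869).

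The 5 oxidases moved in both directions: 2 rose, 1 fell and 2 did not pass. Hao2 encodes hydroxyacid oxidase 2, which oxidises long-chain 2-hydroxy acids and makes hydrogen peroxide. It lies on the - strand at chr3:98874521-98893239 (GRCm38, the assembly of mm10). Its values were 11.06, 10.66, 10.92 and 10.68 in wild type against 13.43, 13.12, 12.95, 12.88 and 12.90 in knockout. Every knockout lay more than 1 unit above every wild type, and knockout 1 was the highest library. The difference was 2.23 (SE 0.13, interval 1.96 to 2.49, adjusted p = 1.32e-09), and Hao2 went from 0.0143% to 0.0701% of all reads. In knockout it was the most abundant of the 5 oxidases, whereas in wild type Pipox and Dao were higher. The stretch just upstream of the Hao2 start is shown because Hao2 has the largest increase of the 30 genes. A further reason is that its promoter has the lowest G and C content of the 24 matched, by the first listed start of each gene. The 300 bases from 250 before to 50 after the start have 32.3% G or C and 2 CpG. The median over 32851 mouse promoters is 52.7% (quartiles 45.7% and 61.7%). The bases from 120 to 21 before the start, at chr3:98893251-98893350 on the - strand, read 5′ to 3′ (RefSeq, GRCm38.p6):
Hao2: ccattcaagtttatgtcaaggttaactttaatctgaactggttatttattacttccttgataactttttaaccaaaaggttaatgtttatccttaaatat

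Hao2 belongs to a list of 5 genes taken as female-biased in mouse kidney. All 5 were higher in knockout, with Slc7a12 at a difference of 5.28 (adjusted p = 2.42e-11) and Prlr, the prolactin receptor, at 4.07 (adjusted p = 3.91e-09). Hao2 made up most of their summed level; the other 4 genes summed to 15.52 to 22.48 CPM in wild type and 191.89 to 390.01 CPM in knockout. Genes listed as male-biased were lower in 5 of 6, with Slco1a1 at -3.04 (adjusted p = 3.5e-10) and Cyp4b1 at -2.20 (adjusted p = 1.02e-08). Kap, an androgen-regulated proximal tubule transcript, was at -0.67 (adjusted p = 0.0604). Every knockout lay below every wild type for Kap. This result depended on the setting: Kap passed in 5 of 21 alternative settings, and its difference ran from -0.78 to 0.00 across them. No marker of either list was at 0 in all libraries. Both lists were chosen with earlier results of these data known, so these counts are not independent of those results. The part of sex or of sex hormones in the Hao2 result was not tested.

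Xdh encodes xanthine dehydrogenase, which turns purines into uric acid and is found mainly in the cytosol. It lies at chr17:73883895-73950196 (- strand). Xdh was at 5.94, 5.29, 6.22 and 6.21 in wild type and at 6.48, 6.60, 6.64, 6.88 and 6.55 in knockout. The gap between the highest wild type and the lowest knockout was narrow, and wild type 2 was far below the rest. The difference was 0.72 (SE 0.22, interval 0.25 to 1.18, adjusted p = 0.0381), and it was lost in 12 of 21 alternative settings. Leaving out wild type 1, wild type 2, or any of knockouts 2 to 5 each ended the call, with adjusted p of 0.0587 without knockout 5 and 0.0912 without wild type 2.

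Pipox oxidises pipecolic acid and sarcosine, breakdown products of lysine and choline. It lies at chr11:77880615-77894096 (- strand). Wild types read 12.41, 11.83, 12.09 and 12.12, and knockouts 11.94, 11.59, 11.57, 11.13 and 11.30. Knockout 1 lay above wild type 2, and the other knockouts lay below all wild types. Pipox fell by 0.61 (SE 0.15, adjusted p = 0.00877). The call was lost without knockout 2 and knockout 5 together (adjusted p = 0.0631) and with the Rn45s share of each library as a covariate (-0.38, adjusted p = 0.0789), and with 1 prior variance for all genes (adjusted p = 0.0652).

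Dao and Ddo oxidise D-amino acids and D-aspartate. Dao was at 11.14 to 11.47 in wild type and 10.83 to 11.27 in knockout, with a difference of -0.26 (interval -0.49 to -0.04, adjusted p = 0.119). Ddo was at 7.53 to 8.53 in wild type and 7.19 to 7.93 in knockout, with wild type 2 below 3 of the 5 knockouts. Its difference of -0.54 did not pass over all libraries (interval -0.94 to -0.13, adjusted p = 0.071), but did without wild type 2 (-0.72, adjusted p = 0.00844) or without knockout 1 (-0.63, adjusted p = 0.0403).

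Catalase, encoded by Cat at chr2:103453849-103485160 (- strand), breaks down the hydrogen peroxide that the oxidases make. It was at 12.70, 12.43, 12.46 and 12.36 in wild type and at 11.94, 11.66, 11.73, 11.64 and 12.05 in knockout. All 5 knockouts lay below all 4 wild types. Cat fell by 0.68, a 1.61-fold lower level (SE 0.11, interval -0.92 to -0.45, adjusted p = 0.000365). Prdx5 encodes a peroxiredoxin found in mitochondria and cytosol as well as peroxisomes, and had the highest mean of the 30 genes. It read 13.92, 14.06, 13.55 and 13.63 in wild type against 13.67, 13.70, 13.53, 13.59 and 13.63 in knockout. The knockouts sat inside or just under the wild-type range, with a difference of -0.17 (interval -0.42 to 0.08, adjusted p = 0.398). Exons of Prdx5 overlap Trmt112 on the other strand, which differed by -0.09 (adjusted p = 0.617).

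Phyh hydroxylates phytanoyl-CoA at the start of alpha-oxidation, the route for branched-chain fatty acids, and Hacl1 cleaves the product. Phyh (chr2:4919019-4938730, + strand) was at 12.78, 12.47, 12.76 and 12.72 in wild type and at 12.35, 11.88, 11.84, 11.71 and 11.94 in knockout. Knockout 1 came closest to the wild types, without overlap, and Phyh fell by 0.74 (SE 0.12, adjusted p = 0.000435). Hacl1 (chr14:31598730-31641286, - strand) went the other way, from 8.44, 7.88, 7.93 and 7.78 in wild type to 9.15, 8.76, 9.32, 9.04 and 9.65 in knockout. The lowest knockout was above the highest wild type, and Hacl1 rose by 1.18 (SE 0.17, interval 0.82 to 1.54, adjusted p = 0.000124). Successive enzymes of a single route thus differed in opposite directions in the same libraries, although Phyh stayed the far more abundant transcript in each of them. Exons of Hacl1 overlap Btd on the other strand and the predicted gene Gm49387 on its own; Btd differed by -0.10 (SE 0.18, adjusted p = 0.77).

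Amacr converts branched-chain acyl-CoAs and bile acid intermediates to the stereoisomer that beta-oxidation accepts. It lies at chr15:10981756-10996626 (+ strand). Wild types were at 11.83, 11.54, 11.46 and 11.70 and knockouts at 10.61, 10.48, 10.40, 10.48 and 10.27. The 5 knockouts lay within a narrow range, well below the lowest wild type. Amacr fell by 1.18, to a 2.27-fold lower level (SE 0.11, interval -1.40 to -0.96, adjusted p = 3.35e-07).

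Gnpat and Agps catalyse the opening steps of ether lipid (plasmalogen) synthesis inside the peroxisome, and both fell. Agps (chr2:75832177-75931350, + strand) was at 11.44, 11.12, 11.40 and 11.68 in wild type and at 10.35, 10.36, 9.97, 10.10 and 9.99 in knockout. Even the lowest wild type, wild type 2, was clear of every knockout, and Agps fell by 1.25, a 2.39-fold lower level (SE 0.12, interval -1.51 to -0.99, adjusted p = 1.29e-06). Gnpat (chr8:124863033-124890057, + strand) read 9.26, 9.09, 9.27 and 9.23 in wild type against 8.75, 8.56, 8.61, 8.84 and 8.86 in knockout. Its groups were tight and apart, with a smaller decrease of 0.49 (SE 0.11, interval -0.72 to -0.25, adjusted p = 0.00687). The intervals of the pair do not overlap, but the difference between them was not tested. Exons of Gnpat overlap 2810004N23Rik on the other strand (-0.13, adjusted p = 0.416) and the noncoding Gm16163. By the first listed start of each gene, the promoter of Agps has the highest G and C content of those matched. It has 71.0% G or C and 32 CpG in 300 bases. Its bases from 120 to 21 before the start, at chr2:75832057-75832156 on the + strand, are the same window as shown for Hao2:
Agps: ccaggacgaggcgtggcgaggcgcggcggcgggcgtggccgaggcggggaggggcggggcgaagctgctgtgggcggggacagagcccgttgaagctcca

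This Agps window has 78.0% G or C and 14 CpG, where that of Hao2 has 26.0% and 0. These 2 genes are the extremes. Over 300 bases Hacl1, which rose, has 56.3% and 16 CpG, and Nudt19, which fell most, has 57.0% and 13 CpG. A relation of base content to direction was not tested. Neither the Hao2 nor the Agps 300-base promoter held any of the motifs searched on both strands. The motifs were the E-box CACGTG bound by Bmal1, the sequence AGGTCA bound by REV-ERB, ROR and other nuclear receptors, and a PPAR-type repeat. That repeat is 2 AGGTCA copies with 1 base between and at most 2 mismatches. RefSeq promoters matched 24 of the 30 genes, with 30 start sites. CACGTG was in 3 of those 30 promoters (10%; Dao, Gnpat and Ddo) and in 7.15% of all 32851. AGGTCA was in 5 (16.67%; Phyh, Cat, Dao, Pex11g and Ddo) and in 16.26% of all. The repeat, which overlaps a copy of AGGTCA, was in 1 (3.33%; Cat) and in 3.86% of all. Of these 6 genes, Cat, Phyh and Gnpat fell and Dao, Ddo and Pex11g did not pass. The E-box of Dao lies 85 bases before an alternative start within the gene and is not shown. The repeat and the other E-boxes are shown, with the motif in capitals, so that each match can be read in its sequence context: Cat at chr2:103485315-103485387 (- strand, the repeat), Gnpat at chr8:124862783-124862844 and Ddo at chr10:40629854-40629919 (both + strand, the E-box). Exons of Gm16163 overlap those of Gnpat on the same strand, and whether they reach into the Gnpat window was not examined. The matches begin 204, 224 and 127 bases before the start:
Cat: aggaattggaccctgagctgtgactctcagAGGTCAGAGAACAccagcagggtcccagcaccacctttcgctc
Gnpat: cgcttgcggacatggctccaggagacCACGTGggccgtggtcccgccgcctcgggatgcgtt
Ddo: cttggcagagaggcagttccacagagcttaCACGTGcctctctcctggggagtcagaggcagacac

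Pxmp2 and Pxmp4 are proteins of the peroxisomal membrane, and Pxmp2 forms a channel for small solutes. Pxmp2 was at 10.91, 10.96, 10.82 and 10.67 in wild type and at 10.74, 10.62, 10.59, 10.21 and 10.51 in knockout. Knockout 1 lay inside the wild-type range, and the difference of -0.31 did not pass (interval -0.54 to -0.07, adjusted p = 0.0807); without knockout 1 it did, at -0.36 (adjusted p = 0.0479). Pxmp4 (chr2:154585758-154603708, - strand) read 9.39, 9.05, 9.11 and 8.70 in wild type against 8.41, 8.35, 8.35, 8.18 and 8.50 in knockout. The groups were apart, with wild type 4 nearest to the knockouts, and Pxmp4 fell by 0.70 (SE 0.14, adjusted p = 0.00182).

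Nudt19 is a hydrolase that splits coenzyme A and its esters, abundant in kidney peroxisomes. It lies at chr7:35547185-35556304 (- strand), where exons of the antisense transcript B230322F03Rik overlap it. Nudt19 was at 13.49, 13.28, 13.51 and 13.69 in wild type and at 11.91, 12.16, 11.57, 11.65 and 11.63 in knockout. The highest knockout, knockout 2, lay more than 1 unit below the lowest wild type. Nudt19 fell by 1.71, a 3.27-fold lower level (SE 0.13, interval -1.98 to -1.44, adjusted p = 4.19e-08), and went from 0.0908% to 0.029% of all reads. It had the largest decrease of the 30 genes. Idh1, which makes NADPH in cytosol and peroxisomes, was at 13.27, 12.82, 12.65 and 12.97 in wild type and at 13.00, 13.14, 12.86, 12.91 and 12.88 in knockout. Its knockouts all lay within the wild-type range, with a difference of 0.03 (interval -0.23 to 0.28, adjusted p = 0.908). Nudt12, which cleaves NADH, was the least abundant of the 30, at 4.46 to 5.53 in wild type and 4.33 to 5.01 in knockout, and its interval of -1.06 to 0.27 was the widest (adjusted p = 0.459).

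Libraries of a genotype differed among themselves. The 30 genes together took 0.605%, 0.503%, 0.529% and 0.551% of wild-type reads and 0.516%, 0.472%, 0.433%, 0.396% and 0.461% of knockout reads. Wild type 1 was the highest wild type in 15 of the 30 genes and the lowest in 0, and wild type 2 was the lowest in 13. Among knockouts, knockout 4 was the lowest in 12 genes and the highest in 1. Wild type 2 and knockout 4 are also the libraries with the most Rn45s and globin in their genotypes; the part of either in these orders was not tested.

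**Figure D3:**
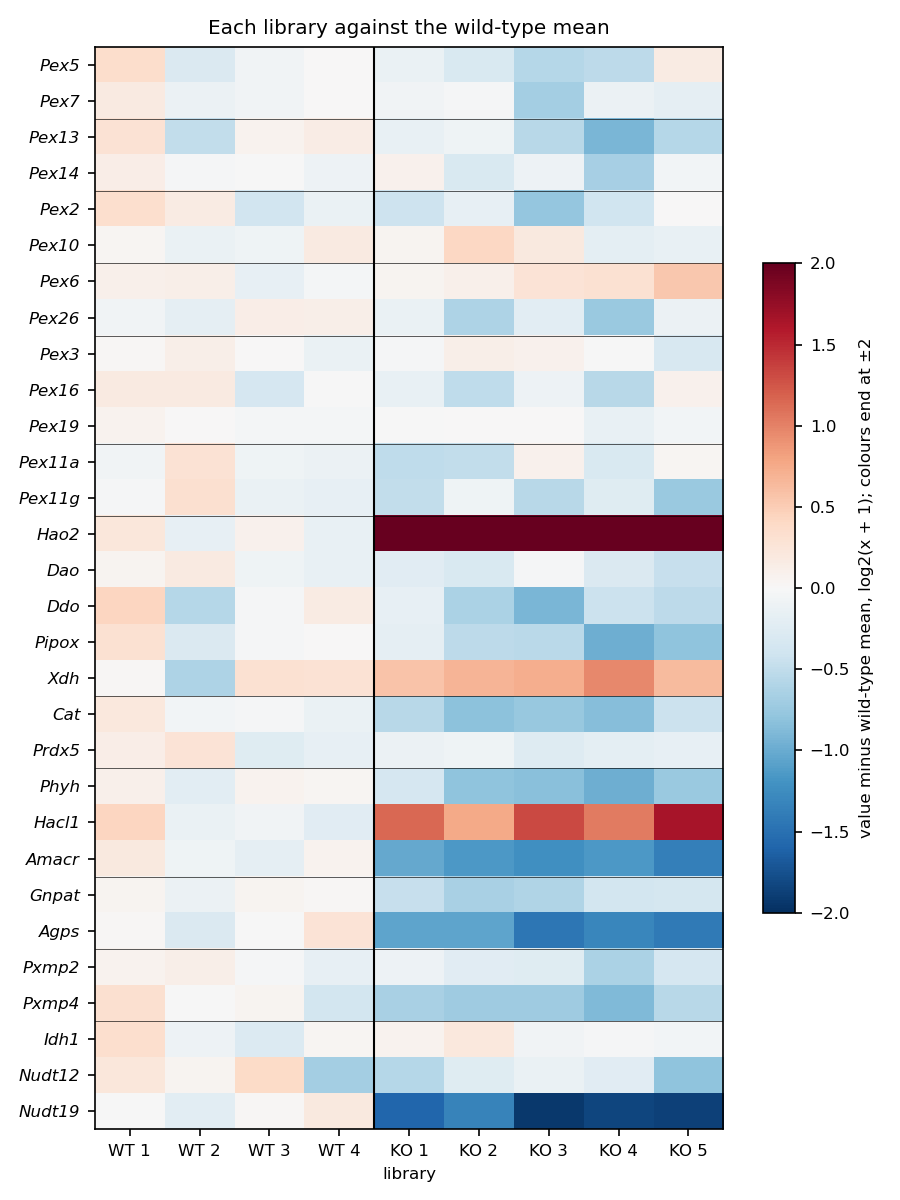
Value of each of the 30 genes in each library minus the wild-type mean of that gene, on the log2(x + 1) scale, with colours ending at 2 in either direction; genes are in order of role. Hao2, Hacl1 and Xdh are red in all 5 knockouts and Amacr, Agps and Nudt19 blue, while the peroxins in the upper rows have paler colours of both signs.

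Peroxisomal genes outside the 30 were followed in lists by function. Of 70 symbols listed, 69 were in the data and 63 were tested. Of these 63, 1 was higher (Baat) and 23 were lower in knockout, beside 6.16% and 8.2% of all genes. The median difference of the 63 was -0.26. The count of higher genes was 2 without wild type 1, without wild type 2 or without knockout 5. The count of lower genes was 17 without wild type 4 and 25 without knockout 1, the extremes when single libraries were left out. It was 18 with quantile normalization, upper-quartile scaling or scaling to the library total. With 1 prior variance, the Rn45s share as covariate or scaling to the total minus Rn45s it was 17. Of 13 genes of division, import and turnover, 3 fell, with a median of -0.19. The ATPase Vcp was at -0.43 (adjusted p = 0.00823), a call lost with quantile normalization (-0.29, adjusted p = 0.0755) and with scaling to the total minus Rn45s (adjusted p = 0.0505). The peroxisomal protease Lonp2 was at -0.38 (adjusted p = 0.0343) and the insulin-degrading enzyme Ide at -0.53 (adjusted p = 0.0369); each was lost without any 1 of wild types 1, 3 and 4 and knockouts 2, 3 and 4 (highest adjusted p 0.0945 and 0.133). Lonp2 was lost in 13 and Ide in 14 of the 21 settings, and with the Rn45s share as covariate they were at -0.22 (adjusted p = 0.245) and -0.23 (adjusted p = 0.301).

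Peroxisomal beta-oxidation shortens very long and branched fatty acids. By the limma test 10 of its 22 tested genes were lower and 0 higher, beside 8.2% and 6.16% of all genes. At an unadjusted p under 0.05, 12 were lower and 0 higher, beside 1969 and 1739 of all 13481 genes. The list median was -0.37. Acox3, a branched-chain acyl-CoA oxidase, was at 11.30, 11.07, 11.62 and 11.29 in wild type and at 10.78, 10.28, 10.16, 10.05 and 10.12 in knockout. All knockouts were below all wild types, and Acox3 fell by 1.04 (SE 0.14, adjusted p = 6.79e-05). Pecr, a reductase, fell by 0.73 (adjusted p = 0.000161), Crot, which exports shortened chains as carnitine esters, by 0.63 (adjusted p = 0.000113), and the thiolase and lipid carrier Scp2 by 0.53 (adjusted p = 0.00418). Of 7 transporters of the peroxisomal membrane and related genes, 3 fell, with a median of -0.60. These were Slc27a2, a fatty acid transporter and acyl-CoA synthetase (-0.61, adjusted p = 0.000777), the acyl-CoA transporter Abcd3 (-0.60, adjusted p = 0.00112) and Mpv17l (-0.65, adjusted p = 0.00555). The Mpv17l call was lost with 1 prior variance (adjusted p = 0.0521) and with the Rn45s covariate (adjusted p = 0.0519).

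Of 17 genes of other peroxisomal metabolism, 1 rose and 6 fell, with a median of -0.15. Ephx2, which hydrolyses fatty acid epoxides, fell by 1.06 (adjusted p = 8.62e-07), the fatty aldehyde dehydrogenase Aldh3a2 by 0.89 (adjusted p = 0.000466) and the reductase Dhrs4 by 0.49 (adjusted p = 0.00316). Baat, which joins bile acids to amino acids, rose from 3.93, 3.89, 3.29 and 3.98 to 5.71, 5.33, 5.47, 5.67 and 5.68. It stayed a low transcript in every library, with a difference of 1.80 (SE 0.31, adjusted p = 0.000562). Prdx1, the most abundant gene of this list, was at -0.02 (interval -0.30 to 0.26, adjusted p = 0.946).

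Receptors and cofactors that regulate peroxisomal and lipid-oxidation genes were followed in a list of 8. Of these 1 rose and 1 fell, with a median of -0.11. Ppara, the receptor that drives peroxisomal genes when fatty acids are high, was at 10.75, 10.92, 10.98 and 10.88 in wild type and at 10.75, 10.58, 11.03, 10.61 and 10.76 in knockout. Its groups overlapped, with a difference of -0.14 (interval -0.36 to 0.09, adjusted p = 0.446). Its relative Ppard rose from 8.62, 7.22, 7.79 and 7.80 to 8.81, 8.94, 8.64, 8.61 and 8.80. Wild type 1 overlapped the knockouts, and the difference was 0.90 (SE 0.20, adjusted p = 0.0048), lost without knockout 2 and knockout 5 together (adjusted p = 0.0505). Their partner Rxra fell by 0.35 (SE 0.10, adjusted p = 0.0214), a call lost in 9 of the 21 settings. These were the leaving out of wild type 3, wild type 4, knockout 2 or knockouts 2 and 5, the Rn45s covariate and all 4 other scalings, with adjusted p of 0.051 to 0.131. Hnf4a, a hepatocyte and proximal tubule factor and the most abundant regulator, was at -0.31 (adjusted p = 0.055).

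**Figure D4:**
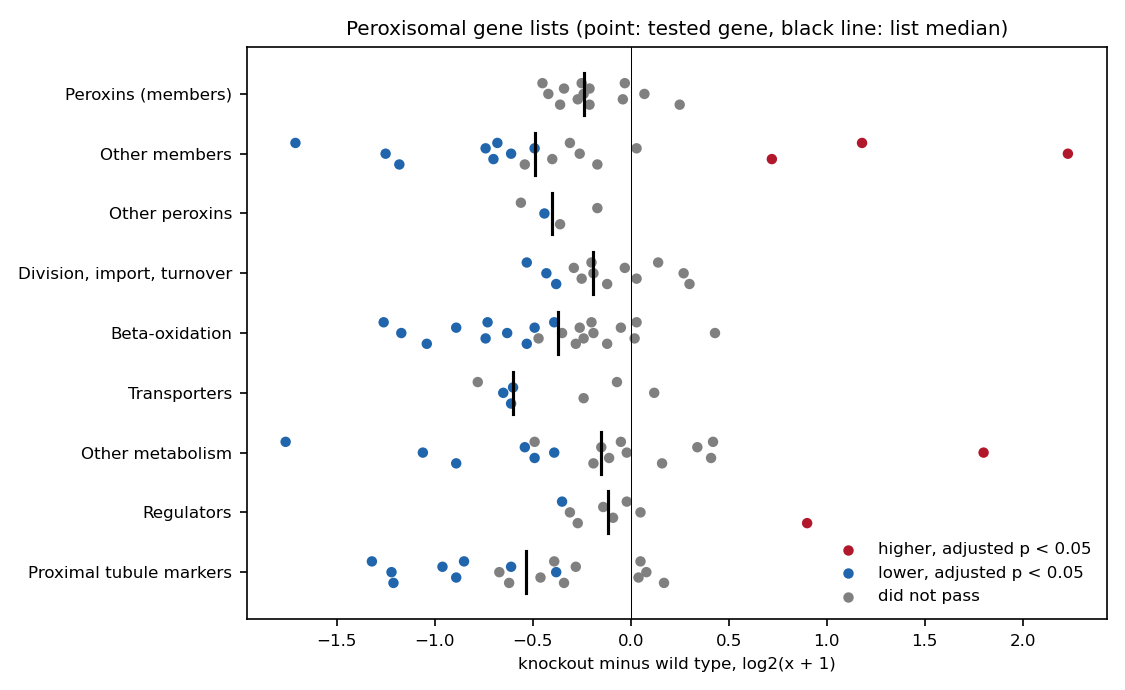
Difference between knockout and wild type, on the log2(x + 1) scale, of each tested gene in the peroxisomal lists, the regulators and the proximal tubule markers; points are genes, coloured by the test, and black lines are list medians. Beta-oxidation, transporter and proximal tubule lists have medians of -0.37, -0.60 and -0.54, and the 13 peroxins of the 30 genes have -0.24.

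Proximal tubule cells, which hold most kidney peroxisomes, were followed by 18 markers. Of these 8 were lower and 0 higher by limma (14 and 0 where p was under 0.05 without adjustment), with a median of -0.54. Over all genes 8.2% were lower by limma, and 1969 of 13481 at an unadjusted p under 0.05. The decrease of the markers was not uniform: 4 of the 18 lay slightly above 0 and did not pass. These were Aqp1 (0.17), Slc5a2 (0.08), Gatm (0.05) and Slc5a12 (0.04). The summed level of the 18 was 54472 to 64959 CPM in wild type and 39037 to 41381 CPM in knockout, without overlap. Kap, also in the male-biased list, made up most of that sum. It took 3.72% to 5.15% of wild-type reads and 2.83% to 3.08% of knockout reads. Slc34a1, the phosphate transporter and next most abundant marker, was at -0.28 (adjusted p = 0.173), and Slc27a2 is in this list and the transporter list. In whole-kidney RNA, fewer cells of a type and less RNA per cell cannot be told apart, and the part of proximal tubule content in the decreases above was not tested.

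Markers of other kidney cells moved as well. All 6 urothelial markers were higher (summed 38.32 to 48.24 CPM in wild type and 74.13 to 145.56 CPM in knockout), among them Krt7 (0.80, adjusted p = 0.000284) and Psca (2.74, adjusted p = 0.00165). Of thick limb and distal markers 4 of 6 were higher, though their sums overlapped (1458.2 to 3013.18 and 1966.54 to 2877.57 CPM) and the most abundant, Umod and Slc12a1, did not pass (-0.47 and 0.33, adjusted p of 0.067 and 0.369). Of collecting duct markers 3 of 8 were higher (321.58 to 409.22 and 459.33 to 649.34 CPM), with Aqp2 at 0.66 (adjusted p = 0.0386) and Atp6v1g3 at 0.45 (adjusted p = 0.021). The other 5 did not pass, 4 of the 8 had negative differences, and the list median was 0.09. Higher calls numbered 2 of 6 for endothelium, 2 of 5 for fibroblasts and pericytes and 1 of 5 for podocytes. Over all genes, 6.16% were called higher and 8.2% lower. The most abundant endothelial marker, Plvap, was at 1.03 (adjusted p = 0.000236), but the next, Kdr, was at -0.11 (adjusted p = 0.752). For fibroblasts and pericytes, Dcn was at 0.66 (adjusted p = 0.00378) and Acta2 at 0.49 (adjusted p = 0.0567). Macrophage and dendritic cell markers had 1 of 6 lower (Csf1r, -0.48, adjusted p = 0.00436), and hepatocyte markers 1 of 5 lower. Cd74, the most abundant macrophage and dendritic cell marker, was at 0.01 (adjusted p = 0.982). No erythroid marker of 7 passed the limma test, though 6 were higher at an unadjusted p under 0.05. Those 6 are not separate measures, since Hbb-b1 nearly equals Hbb-bs and Hbb-b2 nearly equals Hbb-bt in every library. No marker in these lists was at 0 in all 9 libraries, and their part in the results on peroxisomal genes was not tested.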

How the data were processed

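Kidney RNA was measured in 9 libraries (4 wild type, 5 Bmal1 knockout); per the labels' protocols, 500 ng of total RNA extracted with Trizol entered each Lexogen QuantSeq 3′ library. The authors deposited 1 table of log2(x + 1) values per library, where x is a read number adjusted towards a common library size. Bowtie2, bedtools and the build mm10 appear in the submitters' processing notes, without versions; for normalization, annotation, strand setting and shared reads the method is not given in the sources used here. These log2 values are not counts, and raw depth is unknown, so no counting interval is given.

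Genes with x of at least 10 in 4 or more libraries (13481) entered a limma fit (version 3.58.1, R 4.3.3), genotype as the single term, prior variance following mean expression, two-sided, Benjamini-Hochberg adjustment, threshold 0.05. The fit was tested on simulated data. Symbols were matched to GENCODE positions (GRCm38) and RefSeq promoters (GRCm38.p6). CPM here are back-transformed values per 1000000 of the library's adjusted total. Alternatives were a pseudocount of 5, other filters and scalings, 1 prior variance, each library left out, a replicate block and the Rn45s share as covariate; leaving out knockouts 2 and 5 and scaling without Rn45s were chosen after seeing the data. The 30 genes and all lists were chosen with earlier results of these data known. All 30 are named, with every library's value for those that passed and the most abundant of each role; from the other peroxisomal lists and the regulators, up to 4 with the smallest adjusted p and the most abundant; from cell type lists, the most abundant. Some genes that this rule names are not reported here.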

Additional observations from a re-analysis of the deposited data

Results flagged for a closer look

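Single libraries stood far from the rest of their genotype (Dixon's criterion at 95%) in 13 of 158 groups of values checked, 2 of them among the 60 groups of the 30 peroxisomal genes; chance flags about 1 in 20. Pex7 was at 8.37 in knockout 3, where the nearest knockout was at 8.86. Pex11a was at 10.09 in wild type 2, where the nearest wild type was at 9.73. Among other peroxisomal genes, Lonp2 was at 10.04 in wild type 2, Crot at 11.98 in wild type 4, Aldh3a2 at 10.08 in knockout 1 and Baat at 3.29 in wild type 3. The urothelial marker Psca was at 9.04 in knockout 5. Of the library measures, globin took 1.54% of wild type 2 and Kap 3.08% of knockout 2. Summed markers stood out in knockout 5 for podocytes (310.02 CPM) and adipocytes (93.68 CPM), in wild type 2 for erythroid cells (15454.27 CPM) and in knockout 2 for the male-biased genes (31679.34 CPM). Globin made up nearly all of that erythroid sum, and Kap nearly all of that male-biased sum. The flags on these sums therefore repeat those on the library measures, and the 158 groups are not independent of each other.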

How the results depend on the processing

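In all 21 alternatives, 2 to 3 of the 30 genes were higher and 7 to 10 lower, and the calls of Hao2, Hacl1, Cat, Phyh, Amacr, Gnpat, Agps, Pxmp4 and Nudt19 kept their direction and passed. Xdh was lost in 12 and Pipox in 3; Pex13, Pex11g, Ddo and Pxmp2 passed in 2, 1, 4 and 1. The sign of uncalled values near 0 changed for Pex3 in 9, Pex19 in 4, Idh1 in 4 and Pex10 in 1. The share of all calls that were higher in knockout was 42.9%, but 58.1% with upper-quartile scaling, 56.8% when scaled to the library total and 64.7% when scaled to that total minus Rn45s, which moved the median of all genes by 0.10. The other peroxisomal genes higher in knockout, 1 in the fit reported, numbered 0 at x of at least 50 (Baat no longer tested), 3 with quantile normalization, 4 with upper-quartile scaling, 4 with scaling to the library total, 4 with the total without Rn45s, 2 with 1 prior variance, 2 with the Rn45s share as covariate, 2 without knockout 2 and knockout 5, and 1 to 2 with single libraries left out. All genes called, 1937, became 1222 with the Rn45s covariate and 1068 without knockout 2 and knockout 5; the cause was not tested beyond the fewer libraries of the latter. With single libraries left out they ranged from 1426 to 2277. Libraries of the same number in both genotypes did not deviate together (r of 0.151, 0.001, -0.007 and 0.041; wild types 1 and 4, 2 of 4, correlated best with their own number). With the replicate block, 2 of the 30 were higher and 9 lower (Xdh lost at adjusted p = 0.0539, Ddo gained at 0.0493), 2 other peroxisomal genes were higher, and 1738 of all genes were called. Raw depth is unknown, so low genes such as Nudt12 have no stated limit of detection.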
